A study of Mus musculus with 4 samples.

Results

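The genes described here are 9 genes of fat cell differentiation and lipid uptake: Adipoq, Fabp4, Pparg, Cd36, Lpl, Car3, Cebpa, Cebpb and Cfd. Members were every probe set of the array whose platform gene symbol is one of these names. That rule found 18 of 45037 probe sets, which stand for 8 of the 9 genes. Cfd was not analysed here, because no probe set carried its symbol in the platform table used. In the RefSeq gene table, Adipoq lies on chromosome 16, Fabp4 and Car3 on 3, Pparg on 6, Cd36 on 5, Lpl on 8, Cebpa on 7 and Cebpb on 2. The data are Affymetrix MOE430 2.0 arrays of total RNA from skin of E14.5 mouse embryos, that is, from mid-gestation, with the dermis included. Each of the 4 arrays held RNA of 1 embryo. The 2 mutant embryos carried KRT14-Cre and Ctnnb1(Ex3)fl/+, and the 2 controls were littermates whose genotype the labels do not give further. KRT14-Cre is a recombinase driven by the promoter of the basal keratin KRT14. On the Ctnnb1(Ex3) allele it removes the exon that marks beta-catenin for degradation, so that keratinocytes and their descendants make a stable beta-catenin from 1 allele. The model acts through the epithelium, while the arrays read every cell type of the skin at once. A change in the number of cells of a type and a change in RNA per cell cannot be told apart in such samples.

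Fat cells arise from mesenchymal progenitors. The transcription factors Cebpb and Cebpd act early, and they switch on Pparg and Cebpa, which together drive the genes of the mature cell. Lpl releases fatty acids from lipoproteins, Cd36 carries them across the membrane and Fabp4 binds them inside the cell, while Adipoq is a hormone secreted by fat cells. In the dermis of the mouse, lipid-filled fat cells appear late in gestation. Outside fat, Cd36, Lpl and Fabp4 are also made by endothelium or macrophages, Car3 by skeletal muscle, and Cebpa and Cebpb by differentiating keratinocytes.

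Adipoq, Car3, Fabp4, Pparg, Cd36 and Lpl rose in mutant skin, and Cebpa and Cebpb did not pass the test. Adipoq and Car3 rose most, by 4.04 and 4.06 on the log2 scale, and Fabp4 and Pparg by 1.71 and 1.56. Of the 18 probe sets, 14 were bright enough to be tested, which means that their mean over the 4 arrays reached the median of all probe sets, 31.1. Of these 14, 10 rose, none fell and 4 did not pass (limma, adjusted p threshold 0.05), whereas of all 22519 tested probe sets 7.03% passed, 4.10% as rises and 2.93% as falls. Counted with 1 probe set per gene, 6 of the 8 genes rose and none fell, while 4.96% of 11549 genes rose and 3.78% fell. The median log2 fold change of the 8 genes was 1.25, against -0.02 over all tested genes. The members were chosen with earlier results of these data known, so these counts and medians are a description. The other 4 probe sets, 2 of Fabp4 and 2 of Car3, were too dim to be tested. Adipoq reached the filter through its mutant arrays alone.

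**Figure D1:**
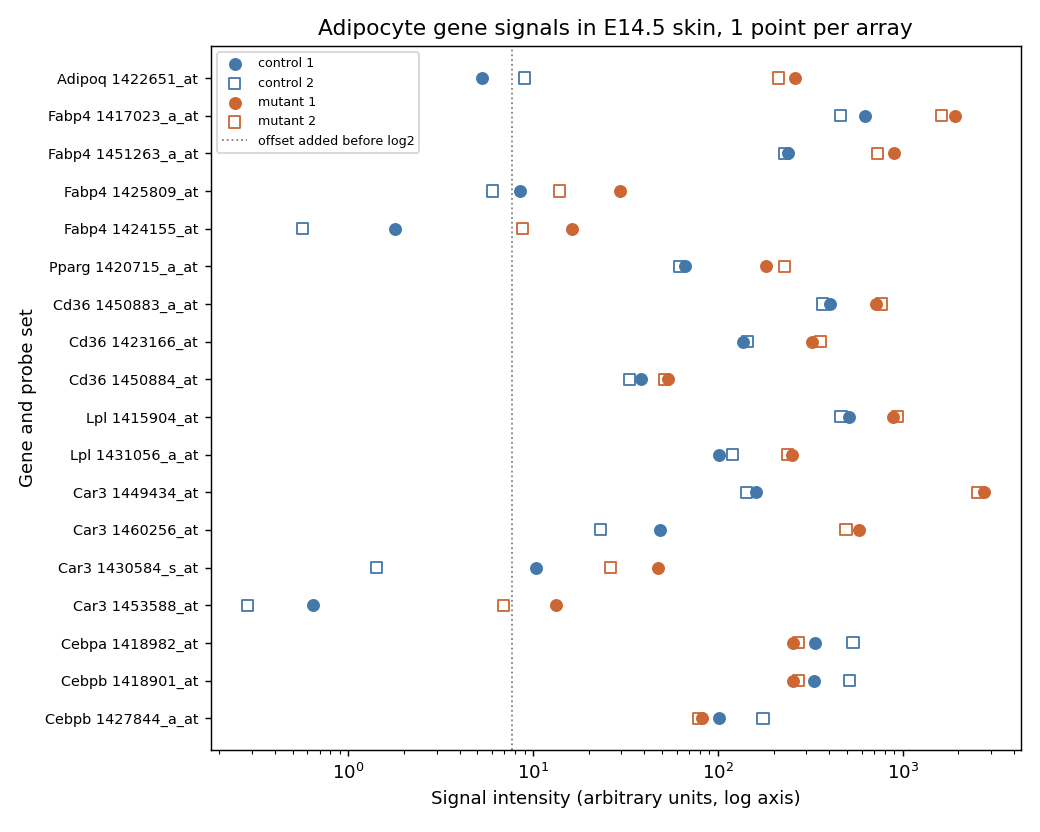
Signal intensity (log axis) of each of the 18 probe sets on each of the 4 arrays, with controls in blue and mutants in orange, and a dotted line at the offset of 7.71 that was added before taking logarithms. In all 15 probe sets of Adipoq, Fabp4, Pparg, Cd36, Lpl and Car3 both mutant arrays lie to the right of both controls, and in the 3 probe sets of Cebpa and Cebpb they lie to the left.

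The plot of signals by array shows no overlap between the groups in any of the 18 probe sets. In 15 of them both mutants were above both controls, as were 24.1% of all 45037 probe sets, and in 3 both mutants were below, as were 27.7% of the 22519 tested probe sets. With 2 arrays against 2, a two-sided exact permutation test cannot give a p under 0.333, so tests rest on the model fitted across all probe sets. That model compares log2(signal + 7.71), and the offset shrinks the folds of dim probe sets.

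The stretches just upstream of the starts of Adipoq, Pparg and Cd36, which rose, and of Cebpa, which did not pass, are shown so that the start regions of genes with unlike values can be compared. They are 250 bases each, 5′ to 3′ on the strand of the gene, from the RefSeq promoter table of build GRCm38.p6, which holds 6 of the 9 genes. Capitals mark matches, on either strand, to 4 motifs: the TATA box TATAAA, the nuclear receptor motif AGGTCA, the C/EBP core TTGCNNAA and the TCF/LEF core ATCAAAG.
Adipoq, chr16:23146286-23146535, plus strand: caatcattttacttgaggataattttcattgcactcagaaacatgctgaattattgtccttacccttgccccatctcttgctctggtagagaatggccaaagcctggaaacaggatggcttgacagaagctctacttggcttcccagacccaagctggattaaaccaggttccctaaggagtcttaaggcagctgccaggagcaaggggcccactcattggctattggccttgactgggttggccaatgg
Pparg, chr6:115421816-115422065, plus strand: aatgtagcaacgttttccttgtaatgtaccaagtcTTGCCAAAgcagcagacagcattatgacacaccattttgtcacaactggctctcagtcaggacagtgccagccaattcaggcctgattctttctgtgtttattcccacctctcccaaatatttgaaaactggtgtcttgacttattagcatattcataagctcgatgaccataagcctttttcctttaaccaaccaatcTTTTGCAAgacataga
Cd36, chr5:17835897-17836146, minus strand: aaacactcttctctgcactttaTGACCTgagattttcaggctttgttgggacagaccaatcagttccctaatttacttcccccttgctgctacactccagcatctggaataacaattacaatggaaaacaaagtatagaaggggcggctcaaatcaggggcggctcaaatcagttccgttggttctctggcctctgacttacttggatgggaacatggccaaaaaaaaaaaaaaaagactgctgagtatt
Cebpa, chr7:35119043-35119292, plus strand: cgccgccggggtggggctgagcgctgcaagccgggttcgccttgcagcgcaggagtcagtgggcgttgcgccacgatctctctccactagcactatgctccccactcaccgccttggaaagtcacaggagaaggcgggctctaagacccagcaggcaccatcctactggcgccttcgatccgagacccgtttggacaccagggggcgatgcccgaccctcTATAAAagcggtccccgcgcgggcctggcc

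For Pparg the table lists 3 starts, and the one printed is the farthest downstream. Its upstream stretch held 2 matches to the C/EBP core, at bases 215 to 208 and 16 to 9 before the start, and 9.6% of 32817 mouse promoters of the same length hold at least 1. The other 2 starts of Pparg each had 1 nuclear receptor motif, which 14% of promoters hold, and 1 of them also had a TATA box. Cd36 had 1 nuclear receptor motif and Cebpa 1 TATA box, at bases 30 to 25 before the start, while 12.4% of promoters hold that box. The Adipoq stretch matched none of the 4 motifs, nor did that of Cebpb. The TCF/LEF core, the motif of the factors that beta-catenin binds, matched in none of the 8 member promoters in the table and in 3.2% of all promoters. These are matches of letters in a short window and say nothing of binding.

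Among the transcription factors, Pparg rose in mutant skin, and Cebpa and Cebpb did not pass. Pparg, the nuclear receptor that is needed for fat cell formation, has a single probe set (1420715_a_at). It read 66.7 and 61.8 in the controls and 183 and 229 in the mutants, so that the lower mutant was far above the higher control. The mean went from 64.3 ± 3.48 to 206 ± 32.9 (SD, 2 arrays each), a log2 fold change of 1.56 (SE 0.17, 95% interval 1.15 to 1.97, limma adjusted p = 0.00409). Without each array in turn, the log2 fold change of Pparg lay between 1.41 and 1.72.

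Cebpa, the partner of Pparg in the mature fat cell, read 335 and 538 in the controls and 255 and 274 in the mutants (1418982_at). Both mutants were below both controls, yet the gap between the controls was wider than the gap from the lower control to the mutants. The log2 fold change of -0.67 (SE 0.22, 95% interval -1.18 to -0.15) did not pass, with a limma adjusted p = 0.129. Cebpb, which acts early in fat cell differentiation and in many other cells, had both mutants below both controls on each of its 2 probe sets. The brighter one (1418901_at) read 329 and 516 in controls and 253 and 273 in mutants, and the dimmer one (1427844_a_at) 101 and 175 against 81.6 and 78.8. Their log2 fold changes of -0.63 (SE 0.21, limma adjusted p = 0.133) and -0.69 (SE 0.25, limma adjusted p = 0.171) did not pass either.

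Control 1 decided these results. Without it, Cebpa had a log2 fold change of -1.0 (limma adjusted p = 0.00653) and the Cebpb probe sets had -0.95 (limma adjusted p = 0.00828) and -1.06 (limma adjusted p = 0.0156), which pass. Without control 2 the values were -0.33, -0.31 and -0.31, and none passed. Control 2 was above control 1 by 0.67 for Cebpa and by 0.64 and 0.75 for Cebpb on the log2 scale. Keratinocyte markers moved with them: the median difference of control 2 over control 1 was 0.84 for 8 suprabasal and 0.48 for 8 basal markers. The summed signal of the suprabasal markers was 11492 and 17051 in the controls and 1536 and 1996 in the mutants, and 6 of the 8 fell. Krt10, a keratin of the suprabasal layers, had a log2 fold change of -4.52 and its partner Krt1 one of -5.50. Krtdap, a secreted protein of those layers, fell by 2.76. The part of these cells in the Cebpa and Cebpb values was not tested.

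**Figure D2:**
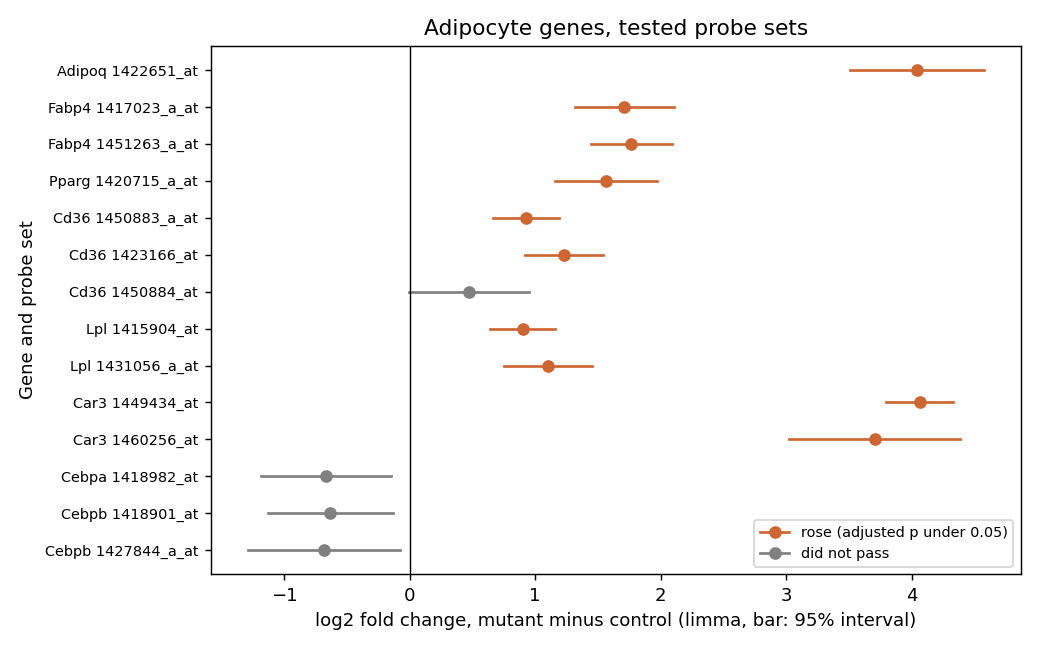
Log2 fold change (mutant minus control, limma) of the 14 tested probe sets, with bars for the 95% interval, in orange where the adjusted p passed. The 10 that rose range from 0.90 for Lpl to 4.06 for Car3, and Cebpa and Cebpb lie between -0.69 and -0.63.

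Adipoq, the fat cell hormone adiponectin, went from near the bottom of the scale to a clear signal. Its single probe set (1422651_at) read 5.30 and 8.97 in the controls, where 25% of all values lie under 7.71, and 260.3 and 212 in the mutants. The groups were far apart, and both controls lay close to the offset, so that Adipoq was tested through its mutant arrays alone. The log2 fold change was 4.04 (SE 0.22, 95% interval 3.51 to 4.57, limma adjusted p = 0.000335). Because the controls lay near the offset, its size depends on that choice: it was 4.90 with an offset of 1 and 2.77 with an offset of 32, and passed with both. In the authors' deposited table of changed probe sets, Adipoq is listed with a fold of 134.8, mutant over control. That table names another processing, GCRMA, so its folds are on a different scale. The ratio of mean signals here was 33.1.

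The genes whose proteins bring fatty acids into the cell rose less than Adipoq. Lpl, lipoprotein lipase, read 511 and 463 in the controls and 889.6 and 939.9 in the mutants on its brighter probe set (1415904_at). The log2 fold change was 0.90 (SE 0.11, 95% interval 0.64 to 1.16, limma adjusted p = 0.00582). Its other probe set (1431056_a_at) read 101 and 119.8 against 251 and 238, a log2 fold change of 1.10 (SE 0.15, limma adjusted p = 0.00854). Both probe sets thus rose, by amounts whose intervals overlap, with a narrow spread inside each group.

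Cd36, the fatty acid translocase, rose on 2 of its 3 probe sets. The brightest (1450883_a_at) read 404 and 369 in the controls and 717 and 766 in the mutants, a log2 fold change of 0.93 (SE 0.11, limma adjusted p = 0.00561). The next (1423166_at) read 137 and 144 against 322 and 360.0, a log2 fold change of 1.23 (SE 0.13, limma adjusted p = 0.00350). The dimmest (1450884_at) read 38.3 and 33.2 against 54.0 and 51.3, without overlap, and its 0.47 (95% interval -0.0026 to 0.95, limma adjusted p = 0.220) did not pass. In the authors' deposited table, Cd36 is listed with a fold of 2.184 and Lpl with 2.334, mutant over control. Of the 170 probe sets that the authors list, 3 belong to the genes described here, namely to Adipoq, Cd36 and Lpl. Car3, Fabp4 and Pparg rose here but are not listed there, and the reason was not tested.

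Fabp4, the fatty acid binding protein of fat cells, rose 3.28-fold and 3.50-fold in mean signal on the probe sets that were tested. One (1417023_a_at) read 622 and 459 in the controls and 1919.8 and 1629 in the mutants, and the other (1451263_a_at) read 238 and 228 against 902 and 731. The log2 fold changes were 1.71 (SE 0.17, 95% interval 1.32 to 2.11, limma adjusted p = 0.00260) and 1.77 (SE 0.13, limma adjusted p = 0.00117). On both, mutant 1 was above mutant 2, by 0.24 and 0.30 on the log2 scale. The untested probe sets read 8.51 and 6.05 against 29.5 and 13.9 (1425809_at), and 1.78 and 0.563 against 16.3 and 8.80 (1424155_at). They had the same order of groups at signals close to the offset.

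Car3, a carbonic anhydrase that is abundant in fat cells and in slow skeletal muscle, had the smallest adjusted p of the genes described here. On its brightest probe set (1449434_at) it read 161 and 143 in the controls and 2745 and 2558 in the mutants. The mean rose 17.5-fold, from 152 ± 12.7 to 2651 ± 132 (SD, 2 arrays each), and the log2 fold change was 4.06 (SE 0.11, 95% interval 3.79 to 4.33, limma adjusted p = 3.74e-05). A dimmer probe set (1460256_at) read 48.9 and 23.0 against 582 and 494, a log2 fold change of 3.70 (SE 0.28, limma adjusted p = 0.00120). Of the 2 untested ones, 1 read 10.3 and 1.41 against 47.3 and 26.2 (1430584_s_at), and the other 0.644 and 0.285 against 13.3 and 6.95 (1453588_at). Every Car3 probe set thus had both mutants above both controls, and the size of the change was read best on the brightest.

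**Figure D3:**
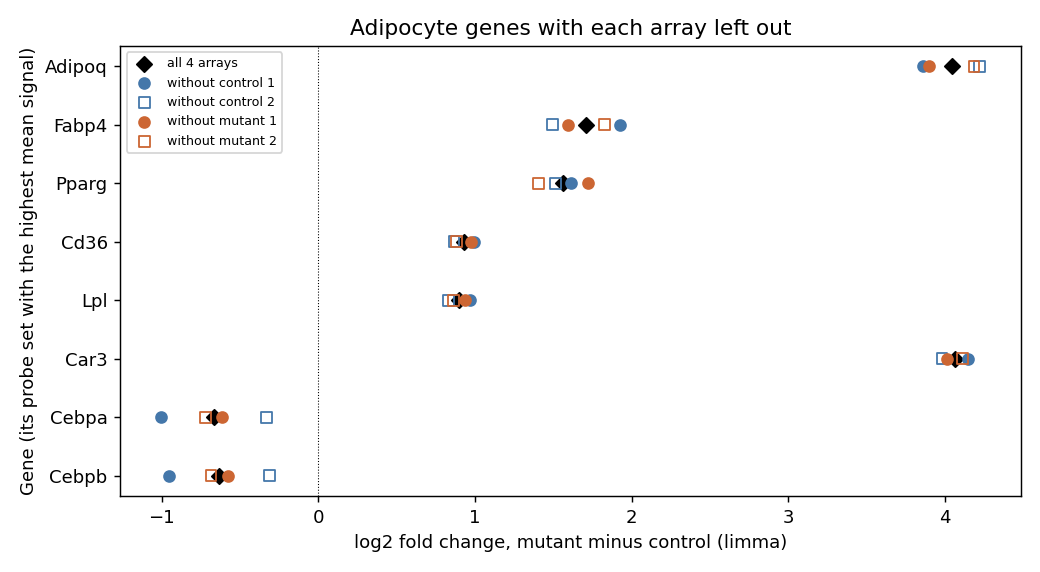
Log2 fold change (mutant minus control, limma) of each of the 8 genes, on its brightest probe set, with 4 arrays (diamonds) and with each array left out. Adipoq stays between 3.86 and 4.22 and Car3 between 3.98 and 4.14, while Cebpa moves from -1.0 without control 1 to -0.33 without control 2.

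The plot with each array left out shows that no single array carried a rise. The 10 probe sets that rose passed in each of those 4 fits. Fabp4 lay between 1.495 and 1.93 on its brightest probe set, Cd36 between 0.87 and 0.99 and Lpl between 0.83 and 0.97. In such a fit the group with a lone array is assumed to vary like the other.

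Genes whose profiles over the 4 arrays lay closest to a member were looked up among 11541 other tested genes, by Euclidean distance of log2 values centred on the gene's mean. For Cd36 the nearest was Tyrobp, an adaptor of receptors on myeloid cells (distance 0.04), followed by Stom, the membrane protein stomatin (0.06). For Lpl the nearest was again Tyrobp (0.04), then Gng8, a G protein subunit (0.05). Tyrobp read 437 and 387 in the controls and 752 and 816 in the mutants. For Fabp4 they were Tnc, the matrix protein tenascin C (0.06), and Ntrk2, a neurotrophin receptor (0.16). Pparg had Retreg1, a receptor for turnover of the endoplasmic reticulum (0.09), and Grb14, an adaptor of the insulin receptor (0.10). The nearest to Adipoq were the homeobox gene Msx2 (0.19) and the small GTPase gene Diras2 (0.38), and to Car3 they were Tchh, trichohyalin of the inner root sheath (0.25), and Msx2 (0.32). Each distance rests on 4 arrays only, and genes of similar fold change lie close, as with Tyrobp at 0.92, Cd36 at 0.93 and Lpl at 0.90. A shared cell source was not tested. Msx2, with controls of 18.2 and 23.5, and Diras2, with 9.39 and 13.0, reached the filter through their mutant arrays alone.

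Other genes of fat cell biology, 85 in 6 lists, were read with 1 probe set per gene. Of 80 measured and 63 tested, 8 rose, 3 fell and 52 did not pass, while 4.96% of all tested genes rose and 3.78% fell. Among 17 adipogenic transcription factors and co-activators besides the members, 12 were tested. Rises numbered 2 and falls 1, the remaining 9 missed the threshold, and the median was 0.06. Ebf1, an early factor of the fat cell lineage, read 192 and 147 in the controls and 501 and 515 in the mutants, a log2 fold change of 1.55 (SE 0.15, limma adjusted p = 0.00261). Cebpd, which acts beside Cebpb at the start of differentiation, read 145 and 100.2 against 287 and 304, a log2 fold change of 1.24 (SE 0.19, limma adjusted p = 0.0129). Both kept their calls without any 1 array. Klf5, a factor of fat cell precursors that keratinocytes also make, fell by 0.74 (limma adjusted p = 0.0420). Its call ended without control 2 (limma adjusted p = 0.0861), mutant 1 (limma adjusted p = 0.120) or mutant 2 (limma adjusted p = 0.0701).

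**Figure D4:**
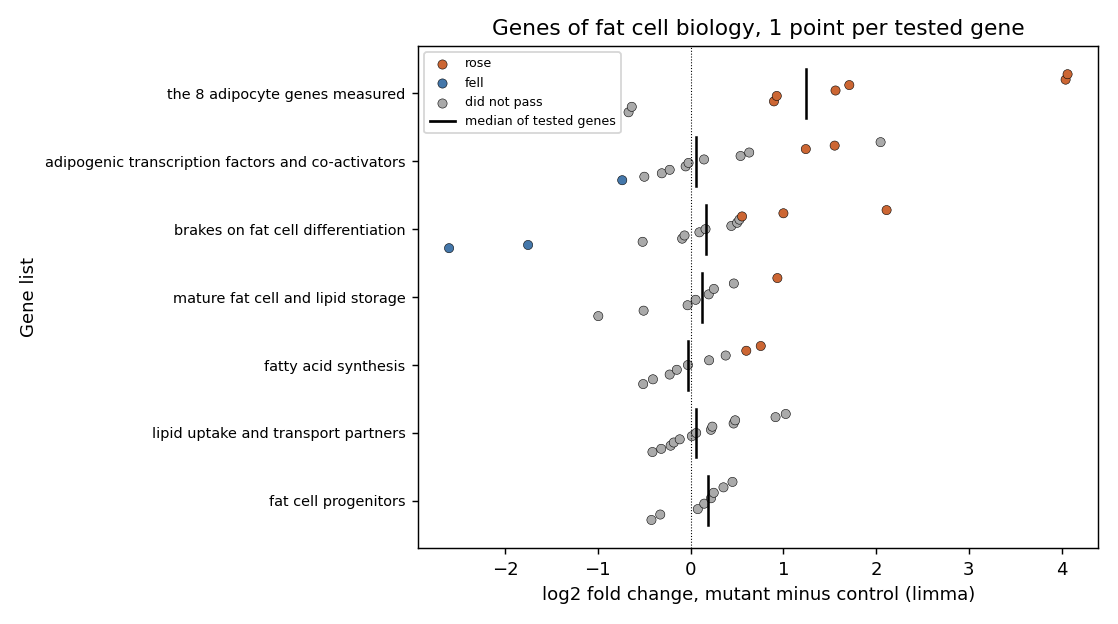
Log2 fold change (mutant minus control, limma) of each tested gene in the 6 lists of fat cell biology, with the 8 adipocyte genes on top, a bar at each list's median, and colour for genes that rose (orange), fell (blue) or did not pass (grey). The medians of the 6 lists lie between -0.03 and 0.18, and that of the 8 genes at 1.25. Members and lists were chosen with earlier results of these data known, so the medians are a description.

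Of 13 genes listed as brakes on fat cell formation, 3 rose, 2 fell and 8 did not pass (median 0.16). Gata3, a factor that keeps progenitors from differentiating and that skin epithelium also makes, fell by 2.60 on the log2 scale (limma adjusted p = 0.00168). Its mutants of 28.7 and 22.3 lay under the filter level, so that it was tested through its controls of 163 and 228. Sfrp5, a secreted Wnt inhibitor, fell by 1.75. Because the Wnt ligands Wnt10b and Wnt5a stand in the same list, the fall of Sfrp5 is not read as the loss of a brake. Sox9, whose controls of 24.1 and 19.5 lay under the filter level so that it was tested through its mutant arrays, rose by 2.11, and the rises of Id3 and Zfp521, genes picked with their values in view, were 1.001 and 0.56. Zfp521 lost its call without control 2 (limma adjusted p = 0.102), mutant 1 (limma adjusted p = 0.169) or mutant 2 (limma adjusted p = 0.0859). Dlk1, the preadipocyte protein Pref-1, chosen after its values were seen as well, had a log2 fold change of 0.16 (limma adjusted p = 0.625).

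Of 19 measured genes of mature fat cells and lipid storage, 11 were too dim to be tested. Among these, Plin4, Cidec and Gpd1 had both mutants above both controls, and Aqp7, Adig and Thrsp had both below. The groups overlapped for Cidea, Lep, Retn, Ucp1 and Pck1. Lipe, hormone-sensitive lipase, rose from 34.6 and 35.5 to 75.1 and 73.3, a log2 fold change of 0.94 (SE 0.18, limma adjusted p = 0.0327), and the other 7 did not pass. The call of Lipe ended without control 2 (limma adjusted p = 0.0618), mutant 1 (limma adjusted p = 0.152) or mutant 2 (limma adjusted p = 0.140). Of the defining fat cell markers other than Adipoq, Cidec read at most 5.53, Lep at most 5.97 and Retn at most 21.7 on any array, and Retn was highest in control 1. Plin1 was not analysed here. So of 4 defining markers measured, Adipoq alone was bright enough to be tested. It reached the filter through its mutant arrays alone, so this is the same fact as its rise.

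Fatty acid synthesis genes were all bright, and 2 of 9 rose: Me1, malic enzyme, by 0.76 (limma adjusted p = 0.0433), and Scd1, a desaturase, by 0.60 (limma adjusted p = 0.0430). Without control 2, mutant 1 or mutant 2 neither passed (limma adjusted p from 0.0851 to 0.132 for Me1, and from 0.104 to 0.187 for Scd1). None of the 13 measured partners of lipid uptake and transport passed (limma, 0 calls, median 0.06). The largest change among them was that of Vldlr, a receptor for lipoproteins, with a log2 fold change of 1.03 (limma adjusted p = 0.0563), which passed without control 1 (limma adjusted p = 0.00134) and without control 2 (limma adjusted p = 0.0427). Gpihbp1, which holds Lpl on capillary walls, had 0.06 (95% interval in the same units -0.26 to 0.38, limma adjusted p = 0.836) and was chosen after its values were seen. None of the 8 tested fat cell progenitor genes passed (limma, 0 calls, median 0.18), the largest being Col15a1 with 0.45 (limma adjusted p = 0.330).

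Markers of other cells that make the same genes were read beside them, while of all tested genes 4.96% rose and 3.78% fell. All 13 macrophage markers had both mutants above both controls, where 26.6% of tested probe sets did, and 7 of them rose (median 0.74). Their summed signal was 4173 and 3258 in the controls and 5960 and 6793 in the mutants, and none was at 0. Mrc1, a scavenging receptor, rose by 0.67, while Csf1r, the macrophage growth factor receptor, had 0.69 (limma adjusted p = 0.0874) and Cd14, an endotoxin receptor, 1.41 (limma adjusted p = 0.0806). With each array left out, the median of the macrophage markers lay between 0.61 and 0.95. Cd36 and Lpl, which macrophages make, had log2 fold changes in the range of these markers, 0.33 for Aif1 to 1.41 for Cd14. On their brightest probe sets, at 0.93 and 0.90, they also lay in the range of the endothelial markers, -0.38 for Erg to 1.07 for Tek. Fabp4, at 1.71 and 1.77 on its tested probe sets, lay above all 13 macrophage markers. The part of macrophages in the Cd36, Lpl and Fabp4 values was not tested.

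**Figure D5:**
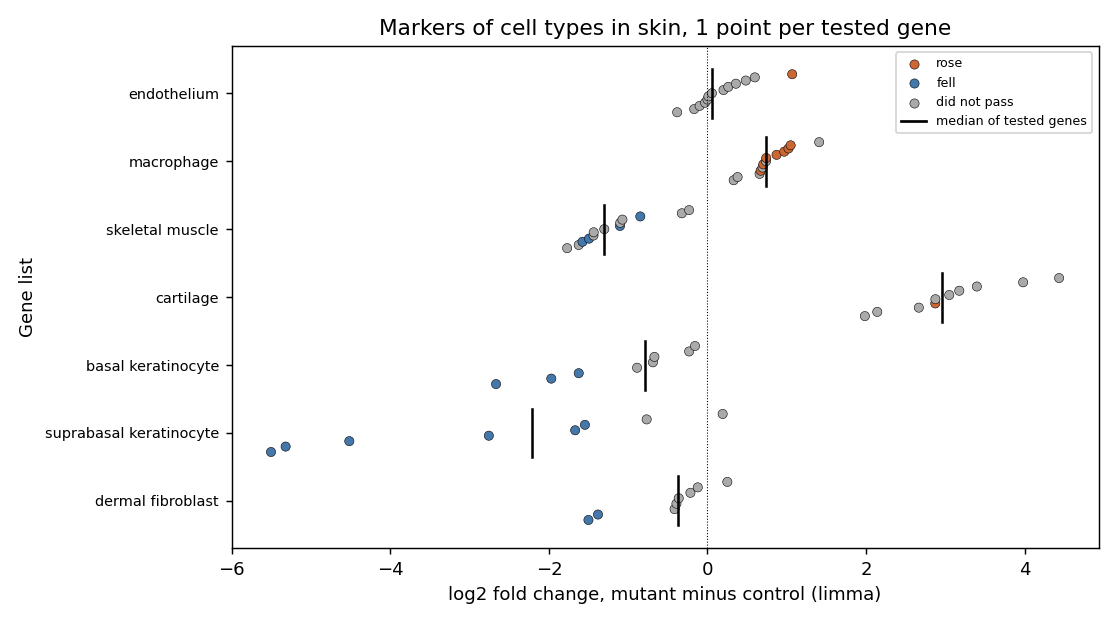
Log2 fold change (mutant minus control, limma) of each tested marker gene of 7 cell types, with a bar at each median and colour for genes that rose (orange), fell (blue) or did not pass (grey). Macrophage markers centre on 0.74, endothelial markers on 0.06 and skeletal muscle markers on -1.30.

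Endothelial markers, read for the same reason, centred on 0.06, and 1 of 13 rose. Their median lay between 0.05 and 0.07 with each array left out. Tek, an angiopoietin receptor, had a log2 fold change of 1.07 (limma adjusted p = 0.00564), and the bright markers Emcn and Esam had 0.60 (limma adjusted p = 0.102) and 0.06 (limma adjusted p = 0.808). The summed signal of the 13 was 3166 and 3092 in the controls and 3620 and 3699 in the mutants. Skeletal muscle markers went the other way from Car3: 4 of 13 fell, none rose, and the median was -1.30. Their sum was 10247 and 7998 in the controls and 5580 and 2622 in the mutants, with Acta1 at -1.44 (limma adjusted p = 0.0968), Myl1 at -1.07 (limma adjusted p = 0.176) and Ckm at -1.77 (limma adjusted p = 0.0876). The muscle median was -1.91 without mutant 1 and -0.85 without mutant 2. In 2 muscle markers, Myog and Myod1, the groups overlapped, with log2 fold changes of -0.32 and -0.23. Slow muscle, where Car3 is abundant, was not read apart from other muscle. The part of endothelial and muscle cells in the Car3, Cd36, Lpl and Fabp4 values was not tested.

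Cartilage markers set the 2 mutants apart. Their summed signal was 12252 in mutant 1 and 921 in mutant 2, against 429 and 240.2 in the controls, and Col2a1, Col9a1 and Col11a1 had log2 fold changes of 4.43, 2.87 and 2.87, of which Col11a1 alone passed (limma adjusted p = 0.0468). The adipocyte genes did not share that gap: mutant 2 minus mutant 1 was -0.29 for Adipoq, -0.10 for Car3 and 0.32 for Pparg on the log2 scale, and -4.17 as the median of the cartilage markers. Leaving out arrays, the cartilage median was 4.89 without mutant 2, 1.07 without mutant 1 and 2.79 without control 2. Some cartilage markers, such as Matn1 and Comp, reached the filter through mutant 1 alone. A rise without mutant 2 was thus largely fixed by the filter and is given as a description. Without mutant 1, Adipoq had a log2 fold change of 3.90 and Car3 of 4.01. The part of cartilage cells in the adipocyte gene values was not tested. Markers of cells found in skin were bright on every array. The fibroblast collagens Col3a1 and Col1a2 read 7229 to 9491 and 5101 to 7382, and the basal keratins Krt5 and Krt14 read 1256 to 2844 and 934 to 2528. These markers do not show that skin was the only tissue, and Acta1 of muscle read 1728 in control 1 and Col9a1 of cartilage 3261 in mutant 1. Among 8 fibroblast markers 2 fell, Dpt, named after its values were seen, and Twist2, which fell by 1.501 on the log2 scale, and among 8 basal keratinocyte markers 3 fell, of which Krt15 fell by 2.67. The basal median was -1.04 without control 1, -1.06 without mutant 2, -0.57 without control 2 and -0.51 without mutant 1.

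The deposited signals were alike in level from array to array, with medians between 27.7 and 32. The processing notes give no scaling target, so like medians do not show like amounts of RNA. The log2 values of 2 arrays correlated, over probe sets that are no independent replicates, with r of 0.982 and 0.984 inside the groups and of 0.962 to 0.968 from group to group. Ctnnb1 had a log2 fold change of 0.04 (limma adjusted p = 0.874), which does not check the removal of its exon. The 12 probe sets of poly-A RNA spiked into the samples were brighter in the controls, by 2.23-fold. On a scale set by these spikes every log2 fold change would be higher by 1.16, so that the 10 rises would stand and Cebpa and Cebpb would be at 0.49, 0.52 and 0.47. How much spike each sample received is not given in the sources used here, so changes are stated relative to total array signal.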

How the data were processed

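Labelled RNA of 4 skins was read on Affymetrix MOE430 2.0 arrays. The deposited signal intensities, 1 per probe set and array on a linear scale, come from GCOS and MAS5, per the submitters' processing notes, which give no version or scaling target. Detection calls were not used here. The authors' deposited table of changed probe sets gives a fold ratio, mutant over control, and names GCRMA, Present calls in at least 2 of 4 arrays and an uncorrected p-value, per the file headers; its 4 per-sample columns were not used.

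Of 45037 probe sets besides 64 array controls, 34945 had 1 gene symbol, 932 several and 9160 none in the platform table. Values were taken as log2(signal + 7.71), the percentile 25 of all values. Probe sets with a mean of at least 31.1, the median, were tested with limma 3.58.1 in R 4.3.3 (group model, variance trend, two-sided, Benjamini-Hochberg over 22519 probe sets, threshold 0.05). A list gene was represented by its brightest probe set. The pipeline was tested on simulated data. The arrays were of separate embryos, and their number limits the precision. Per the file headers, all arrays were washed on the same station and scanned on the same day with the same scanner, so no batch could be tested.

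Members, lists and tests were chosen with earlier results of these data known. Named genes are the members, for each list the 3 most changed called genes, or the most changed one if none was called, the 2 nearest profiles per called member, 2 bright markers and the most changed one per cell type, Ctnnb1 and Krt14. The 13 alternatives covered offset, filter, scaling, variance prior, replicate block and each array left out.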

Additional observations from a re-analysis of the deposited data

How the results depend on the processing

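Over the 14 tested adipocyte probe sets and their alternatives, 187 of 195 refits gave the same direction and side of the threshold, 5 newly passed and 3 changed sign. The 10 rises passed under every alternative run, and the count of members called was 10 to 13, the highest without control replicate 1, where Cebpa and Cebpb passed as falls. Scaling to the poly-A spikes, chosen after seeing the data, turned Cebpa to 0.49, the Cebpb probe sets to 0.52 and 0.47 and Klf5 to 0.42, and called 20603 probe sets in all, 56 of the list genes and 11 member probe sets. Over all probe sets 1583 were called, 880 without the filter, 2443 with the replicate block and 982 to 2171 with an array left out. Of the list genes 11 were called, 6 without the filter, 7 without the variance trend, 17 with the replicate block and 6 to 19 with an array left out; the cause was not tested. Median centring moved the split of all calls to 848 higher and 775 lower, from 923 and 660. The sample numbers 1 and 2 recur in both groups and are no stated pairing; deviations of same-numbered arrays correlated with r of 0.155. With that number as a replicate block, Cebpa passed at -0.67 (limma adjusted p = 0.0472) and no member lost a call. With 2 arrays a group, and controls near the offset, the sizes of the Adipoq and dim Car3 changes are the least certain.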
